A study of Homo sapiens with 6 samples.

Results

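Libraries of the second deposited expression table were compared with those of the first, gene by gene. The second table holds 2 of the study's 6 RNA-seq libraries, and the first holds the other 4. Membership was given by the table in which a library's read counts were deposited. The study addresses mechanotransduction and contact inhibition in HEK293A cells, an adherent derivative of the human embryonic kidney line HEK293. The knockdown libraries came from cells given siUBE2A and siUBE2B, 25 uM each and 50 uM in total, for 48 h. UBE2A and UBE2B are the human forms of RAD6, a ubiquitin-conjugating enzyme. The Control libraries came from cells given vehicle and no siRNA for 48 h. The second table has 1 knockdown and 1 Control library, and the first has 2 knockdown and 2 Control libraries, replicates 1 and 2. Cells of every group were plated at 10000 per cm2 in 60 mm dishes with 10% serum and 1% antibiotic, and grown 18 to 24 h before transfection in 18.6 ul of lipid reagent. The labels give no difference in culture between the tables. Whether replicates came from separate cultures is not given in the sources used here, so p-values measure only the spread between libraries, which may be technical.

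The programs examined are ones that cultured epithelial cells are known to change with density, supply and stress. When cells are sparse or spread, the co-activator YAP binds TEAD factors and drives genes such as ANKRD1, CCN1 and CCN2. When cells crowd together the Hippo kinases hold YAP in the cytoplasm, and inhibitors of cyclin-dependent kinases keep cells from entering the cycle. Heat shock factor, the unfolded protein response, ATF4, NRF2 and p53 each drive their own set of stress genes. Interferons drive a further set of antiviral genes.

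Total counted reads were 10887217 in the second-table knockdown library and 11306372 in the second-table Control library, and ran from 13023190 to 14564624 in the 4 first-table libraries. The tables share 19922 genes, and 17183 of these have the same length, start and end in both; the other 2739 were set aside. The kept genes hold 86.4% to 86.9% of each library's reads, and mitochondrially encoded genes 5.35% to 5.67% of those. Values below are CPM, a gene's reads scaled to the library's total over kept genes and adjusted by TMM factors. A count of 3 reads, the smallest taken as detection, was worth 0.238 to 0.318 CPM, and this floor covers counting error only. UBE2A, the gene targeted together with UBE2B, had 56.5 CPM in the second-table knockdown library and 121 CPM in the second-table Control, against 60.0 and 66.6 CPM in first-table knockdown and 115 and 113 CPM in first-table Control libraries. UBE2B had 52.9 and 70.4 CPM in the second-table knockdown and Control libraries, against 60.0 and 63.6 CPM in first-table knockdown and 72.9 and 73.9 CPM in first-table Control libraries. UBE2A and UBE2B both lay lower in knockdown than in Control libraries in both tables, and neither gene passed the test between the tables (log2 differences of -0.03 ± 0.07 and -0.14 ± 0.08, SE; edgeR adjusted p = 0.81 and 0.17). With an offset for gene length UBE2B was lower (-0.25, edgeR adjusted p = 0.0093).

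The first principal component of log2 CPM carried 57.4% of the variance and set both second-table libraries apart from all 4 first-table libraries, and the second carried 13.3%. The SD of the log2 difference between 2 libraries was 0.474 to 0.562 for pairs from different tables. It was 0.322 for the second-table pair and 0.301 to 0.345 for pairs within the first table, siRNA group notwithstanding. Culture, RNA and library preparation, sequencing run and gene annotation could each differ between the tables, and these cannot be told apart here.

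**Figure D1:**
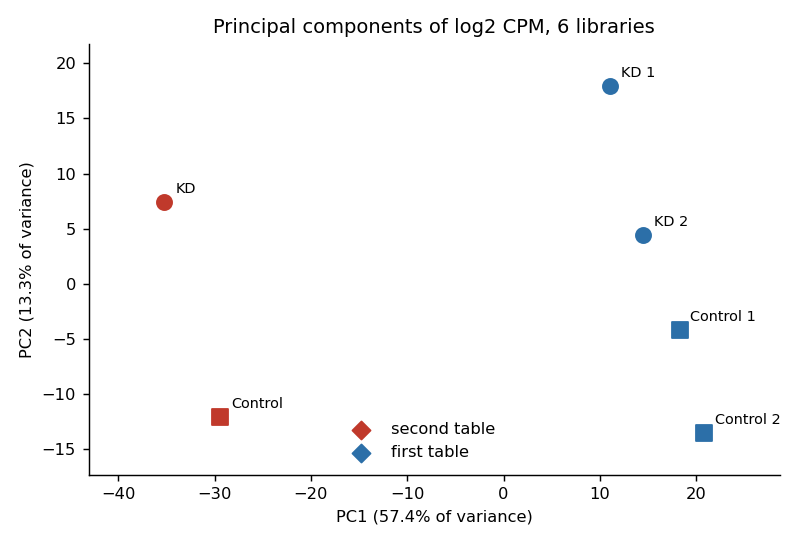
Scores of the 6 libraries on the first (x axis, 57.4% of variance) and second (y axis, 13.3%) principal components of log2 CPM; red marks the second table and blue the first, circles knockdown and squares Control. Both second-table libraries lie left of -29 on the first axis, and all 4 first-table libraries lie right of 11.

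Over 11942 tested genes, the second table was higher in 2160 and lower in 2308 at an edgeR adjusted p under 0.05, which is 18.1% higher and 19.3% lower. These shares are the background for every list below. The differences were mostly small, with a median log2 of 0.44 among the genes called higher and -0.30 among those called lower, and 366 called genes differed at least 2-fold, 292 higher and 74 lower. Both second-table libraries lay above all 4 first-table libraries for 24.2% of the tested genes and below them for 24.5%. Without the second-table knockdown library 2637 genes were called, 11.04% higher and 10.6% lower, and without the second-table Control library 2480, 11.4% higher and 8.83% lower. List counts without a second-table library are to be read against these lower shares.

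No gene's difference between the tables was shown to depend on the siRNA group. The interaction of table and siRNA group passed the threshold for 0 of 11942 genes with edgeR and for 0 with DESeq2. An unadjusted edgeR p under 0.05 was found for 550 genes, 4.61% of those tested. The second over first difference had the same sign within knockdown and within Control libraries for 76.7% of all tested genes, and these contrasts share no library. With 1 second-table library in each siRNA group, the spread in that test comes from the first table alone.

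**Figure D2:**
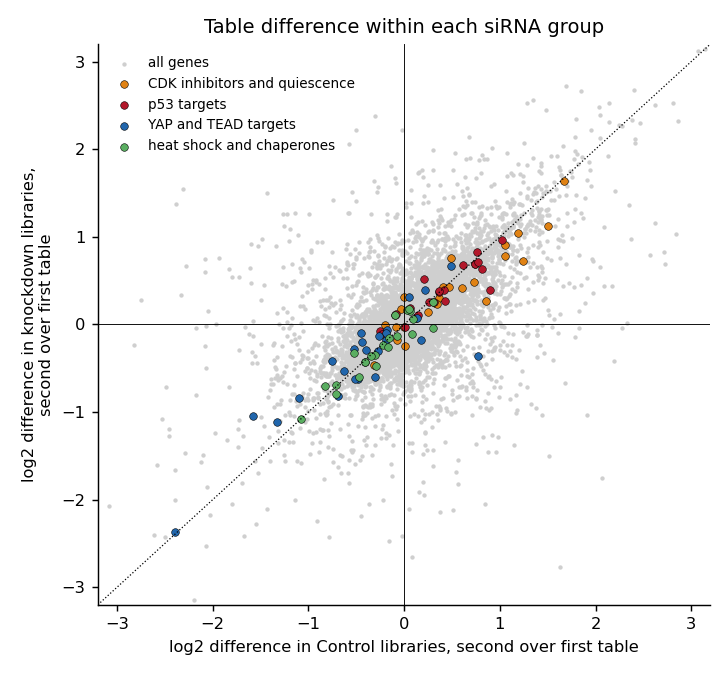
Log2 difference of the second over the first table within knockdown libraries (y axis) against that within Control libraries (x axis), 1 point per gene, with 4 gene lists in colour and the line of equal difference dotted; 28 genes beyond 3.2 on either axis are not drawn. YAP and TEAD targets and chaperones lie mostly lower left, p53 targets and quiescence genes mostly upper right.

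Base composition moved with the difference. The median log2 difference was -0.18 in the decile of genes with the lowest GC content of the transcript and 0.36 in the decile with the highest. In the lowest decile 42.0% of genes were lower and 3.94% higher in the second table; in the highest decile 1.93% were lower and 51.8% higher. The medians of the lowest and highest deciles were -0.20 and 0.39 within knockdown and -0.17 and 0.34 within Control libraries. The contrast of the highest against the lowest GC quintile was 0.33 and 0.25 in the second-table knockdown and Control libraries, on a log2 scale relative to each gene's mean over the 6 libraries, against -0.17, -0.09, -0.13 and -0.18 in the first-table libraries. All 4 first-table libraries thus lay below both second-table libraries in this contrast. Gene length moved less, with a median difference of 0.10 in the shortest quintile and -0.09 in the longest. With an offset for gene length 15.4% of the tested genes were higher and 22.8% lower. List counts with the length offset are to be read against these shares. An offset for GC content, added after the data had been seen, left 11.1% of 11925 genes higher and 16.6% lower. With and without it 2438 genes were called in the same direction and 31 in opposite directions. List counts are therefore given without it and, for most lists, also with it, and the part of GC content in any list was not tested further.

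**Figure D3:**
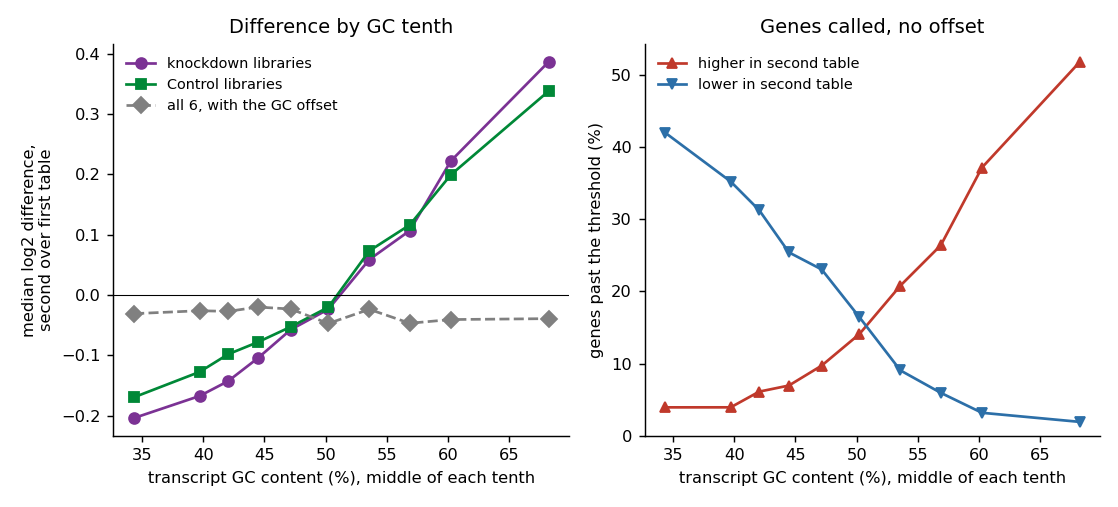
Left, median log2 difference of the second over the first table (y axis) by decile of transcript GC content (x axis, percent), within knockdown libraries, within Control libraries, and over all 6 with the GC offset. Right, the percentage of genes called higher or lower in each decile without the offset; the share higher reaches 51.8% and the share lower 1.93% at the GC-rich end.

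YAP and TEAD targets were mostly lower in the second table. Of 25 tested members, 14 were lower and 2 higher in the second table, against 19.3% lower and 18.1% higher over all genes, and their median log2 difference was -0.32 against -0.01 over all genes. With the GC offset 17 were lower and 0 higher, and the median was -0.35. The median was -0.29 within knockdown and -0.40 within Control libraries.

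ANKRD1, a cardiac ankyrin repeat protein long used as a YAP readout, had 18.2 and 34.4 CPM in the second-table knockdown and Control libraries, against 62.0 and 126 CPM in first-table knockdown and 192 and 171 CPM in first-table Control libraries. Both second-table libraries lay below all 4 of the first table, including the lowest of those, knockdown replicate 1. The log2 difference was -2.39 ± 0.15 (SE; edgeR adjusted p = 7.2e-17), and -2.37 within knockdown and -2.40 within Control libraries. The gene, ENSG00000148677, lies at 90912096 to 90921087 on the minus strand of chromosome 10 in the deposited hg38 coordinates. Its RefSeq promoter (GRCh38.p14, chr10:90921038-90921337, minus strand, 250 bases before to 50 after the start) is shown because it holds 2 copies of GGAATG, the core that TEAD factors bind, in capitals; the first begins 220 bases before the start.
ANKRD1: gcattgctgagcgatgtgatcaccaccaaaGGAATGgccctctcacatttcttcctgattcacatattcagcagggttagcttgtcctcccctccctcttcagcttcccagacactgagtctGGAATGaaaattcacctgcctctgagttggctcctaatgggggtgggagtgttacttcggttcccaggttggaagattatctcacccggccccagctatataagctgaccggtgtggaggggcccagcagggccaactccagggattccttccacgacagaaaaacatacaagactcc

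CCN1, a matricellular protein and classic YAP target, had 60.95 and 79.9 CPM in the second-table knockdown and Control libraries, against 93.5 and 126 CPM in first-table knockdown and 160.1 and 182 CPM in first-table Control libraries (-0.98 ± 0.09, edgeR adjusted p = 2.8e-12). CCN2, its relative, had 42.9 and 76.3 CPM against 63.8 and 87.2 CPM in first-table knockdown and 109.9 and 136 CPM in first-table Control libraries (-0.74 ± 0.09, edgeR adjusted p = 2.3e-08). For CCN2 the groups overlapped, since the second-table Control library lay above first-table knockdown replicate 1. MYOF, a membrane repair protein, was lower without overlap, with 49.0 and 51.7 CPM in second-table libraries against 100.5 to 133 CPM in first-table libraries. TGFB2, a TGF-beta ligand, had 4.49 and 5.11 CPM in second-table libraries against 8.48 to 16.6 CPM in first-table libraries (-1.34 ± 0.20, edgeR adjusted p = 9.0e-07). TEAD1, the DNA-binding partner itself, was lower by less (-0.40 ± 0.06). The 2 members called higher were FOXF2, a forkhead factor (0.58), and FJX1 (0.30), and both lost the call with the GC offset.

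Among other genes of contact and shape, integrins and focal adhesion genes were lower in 9 and higher in 2 of 24, and with the GC offset in 10 and 0. Without the second-table knockdown library 5 were lower, and without the second-table Control library 4. ITGAV, the alpha chain of the vitronectin receptor, had 106 and 116 CPM in second-table libraries against 153 to 181 CPM in first-table libraries (-0.59 ± 0.06, edgeR adjusted p = 4.0e-10). ZYX, the focal adhesion protein zyxin, was higher (0.56), and with the GC offset it was no longer called (0.15, edgeR adjusted p = 0.17). Cadherins, catenins and tight junction genes had a median of 0.00, with 4 of 19 lower and 2 higher, or 3 and 1 with the GC offset, so their shares lay near the background. CLDN1, a tight junction claudin, had 8.56 and 11.1 CPM in second-table against 14.04 to 22.6 CPM in first-table libraries (-1.001 ± 0.15, edgeR adjusted p = 1.5e-06), and TJP1, the scaffold ZO-1, differed by -0.39. Actin and SRF targets also lay near the background, with 5 of 22 lower and 4 higher, and 4 lower and 1 higher when the one or the other second-table library was left out or with the GC offset; FHL2, a LIM-domain cofactor, was lower (-0.52) and TPM2, a tropomyosin, higher (0.47), the last with overlap between the tables and without a call when the second-table Control library was left out (0.36, edgeR adjusted p = 0.32) or with the GC offset (0.35, edgeR adjusted p = 0.11).

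The extracellular matrix list split. Of 26 members 10 were higher and 3 lower, with a median of 0.06; with the GC offset 5 were higher and 8 lower and the median was -0.05, so its balance turned with that setting. MMP2, a gelatinase, had 24.1 and 19.9 CPM in second-table libraries against 7.11 to 9.64 CPM in first-table libraries (1.36 ± 0.14, edgeR adjusted p = 3.4e-10). VCAN, the proteoglycan versican, had 292 and 252 CPM against 123 to 188 CPM (0.90 ± 0.07, edgeR adjusted p = 4.4e-14). THBS1, thrombospondin 1 and also a known YAP-responsive gene, went the other way with 7.72 and 9.10 CPM in second-table against 13.4 to 24.7 CPM in first-table libraries (-1.17 ± 0.16, edgeR adjusted p = 1.0e-07). These 3 kept their calls with the GC offset.

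Inhibitors of cyclin-dependent kinases and genes of quiescence were higher in the second table. Of 25 tested members 14 were higher and 1 lower, with a median of 0.42; with the GC offset 12 were higher and 1 lower, with a median of 0.31. GAS1, growth arrest specific 1, had 81.2 and 67.7 CPM in the second-table knockdown and Control libraries, against 27.3 and 24.7 CPM in first-table knockdown and 23.6 and 18.9 CPM in first-table Control libraries. The second-table libraries lay well above all 4 others, with a log2 difference of 1.65 ± 0.09 (edgeR adjusted p = 2.5e-18). CDKN1A, which encodes p21, had 347 and 325 CPM against 221 and 209.6 CPM in first-table knockdown and 199 and 189 CPM in first-table Control libraries (0.71 ± 0.06, edgeR adjusted p = 1.0e-13). TXNIP, a thioredoxin-binding protein that rises with glucose, had 158 and 117 CPM in second-table libraries against 47.8 to 91.1 CPM in first-table libraries (1.11 ± 0.09, edgeR adjusted p = 8.2e-14). KLF2, a factor of resting cells, was higher at a low level, 4.91 and 5.32 CPM against 1.73 to 2.50 CPM, and missed the threshold without the second-table Control library (1.14, edgeR adjusted p = 0.061). RBL1, the pocket protein p107, was the member called lower (-0.39).

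Targets of Notch, Wnt and TGF-beta signalling were higher in 15 and lower in 1 of 24, with a median of 0.28; with the GC offset the counts were 11 and 1 and the median 0.18. Without the second-table Control library 10 were higher and 0 lower. HES4, a Notch-responsive repressor of the hairy family, had 182 and 173 CPM in the second-table knockdown and Control libraries, against 59.8 and 73.7 CPM in first-table knockdown and 76.1 and 51.5 CPM in first-table Control libraries. The tables did not overlap, and the log2 difference was 1.44 ± 0.08 (edgeR adjusted p = 8.4e-18), or 0.66 with the GC offset. The relative HES1, less rich in GC, differed by 0.98 ± 0.07 and by 0.96 with the offset. NOTCH3, a receptor, and NRARP, a feedback inhibitor of Notch, were higher by 1.07 and 0.99 (0.48 with the GC offset for NRARP), and LGR5, a Wnt target, by 0.71. TGFBI, a TGF-beta-induced matrix protein, was the member called lower, at 1.15 and 0.613 CPM against 1.52 to 3.03 CPM, and it was not called without the second-table Control library (-0.79, edgeR adjusted p = 0.41). The HES4 promoter (RefSeq, GRCh38.p14, chr1:1000048-1000347, minus strand) is shown as an example of the GC-rich genes that stood higher in the second table; its 44 CG dinucleotides are in capitals, and 75.7% of its bases are G or C.
HES4: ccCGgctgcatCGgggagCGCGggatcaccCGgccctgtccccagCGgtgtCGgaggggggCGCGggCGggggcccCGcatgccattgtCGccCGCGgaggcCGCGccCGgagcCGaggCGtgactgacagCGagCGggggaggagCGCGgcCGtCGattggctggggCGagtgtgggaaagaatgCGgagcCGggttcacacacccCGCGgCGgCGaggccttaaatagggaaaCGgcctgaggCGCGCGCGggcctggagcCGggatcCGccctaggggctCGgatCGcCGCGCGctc

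**Figure D4:**
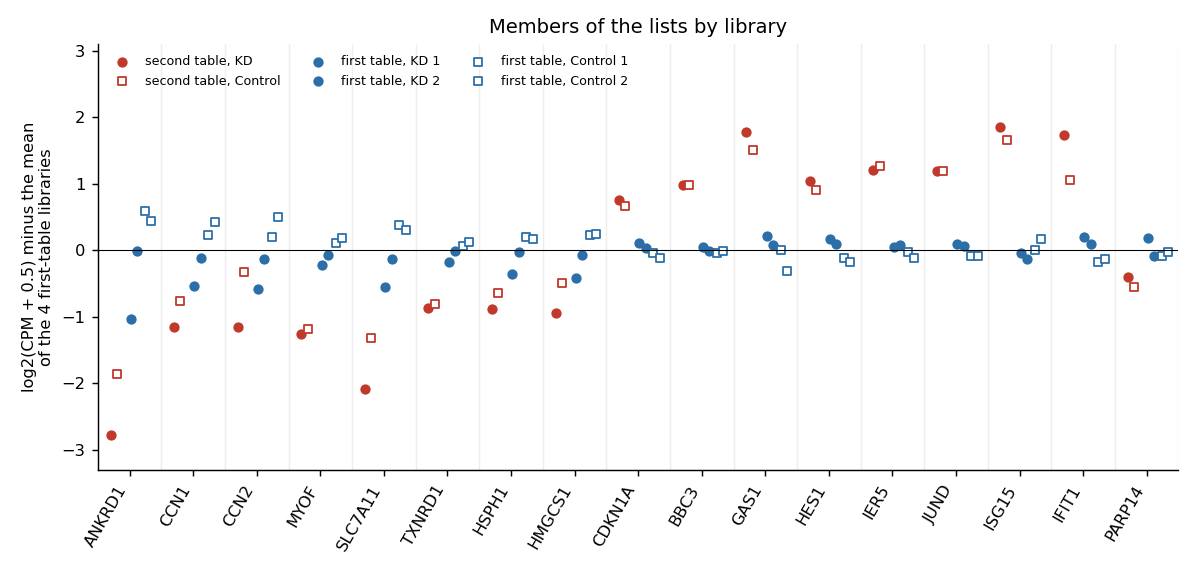
Log2(CPM + 0.5) of 17 list members (x axis) in each of the 6 libraries, minus the mean of the 4 first-table libraries (y axis); red marks the second table and blue the first, filled circles knockdown and open squares Control. Members more than 1 below 0 in both second-table libraries include ANKRD1, MYOF and SLC7A11. Those more than 1 above 0 in both include GAS1, IER5, JUND, ISG15 and IFIT1.

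Among stress programs, those that deal with unfolded proteins were lower in the second table. Of 23 tested heat shock and chaperone genes 13 were lower and 1 higher, with a median of -0.22; with the GC offset 14 were lower and 0 higher, with a median of -0.28. HSPA1A, the inducible HSP70, had 5.53 and 8.996 CPM in second-table libraries, against 10.1 and 13.5 CPM in first-table knockdown and 16.8 and 21.2 CPM in first-table Control libraries (-1.08 ± 0.17, edgeR adjusted p = 3.6e-06). HSPA1A has a near-identical copy, HSPA1B, and reads could be split between them; HSPA1B was lower too (-0.42). HSPH1, an HSP110 nucleotide exchange factor, had 133 and 158 CPM against 193 and 241 CPM in first-table knockdown and 282 and 278 CPM in first-table Control libraries (-0.77 ± 0.07, edgeR adjusted p = 5.3e-12). HSP90AA1, the inducible HSP90, had 1521 and 1862 CPM against 2136 to 2600.4 CPM (-0.54 ± 0.06, edgeR adjusted p = 3.7e-10). The second-table libraries lay below all first-table libraries for these 3 genes. The member called higher was the small heat shock protein gene HSPB1 (0.28), which was not called with the GC offset.

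Endoplasmic reticulum chaperones and genes of the unfolded protein response were lower in 12 of 17 and higher in 0, with a median of -0.29, and with the GC offset in 10 and 0. HYOU1, an ER chaperone of the HSP110 family, had 132 and 124 CPM in second-table libraries against 154 to 204 CPM in first-table libraries (-0.53 ± 0.07, edgeR adjusted p = 2.9e-07). DNAJC3, an ER-resident co-chaperone, was lower by less (-0.43 ± 0.08), and XBP1, the transcription factor of the response, by -0.26, a call not kept with the GC offset (-0.16, edgeR adjusted p = 0.053). Of 26 listed genes 9 had other gene models in the tables and were not tested here.

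Genes of the integrated stress response and ATF4 targets were lower in 10 and higher in 5 of 20, with a median of -0.18, or 10 and 2 with the GC offset. SLC7A11, the cystine importer shared by the ATF4 and NRF2 lists, had 7.62 and 13.3 CPM in the second-table knockdown and Control libraries, against 22.9 and 30.8 CPM in first-table knockdown and 44.3 and 41.8 CPM in first-table Control libraries. Its log2 difference was -1.74 ± 0.13 (edgeR adjusted p = 1.0e-13), with no overlap between the tables. SLC7A5, a large neutral amino acid transporter, differed by -0.74. CEBPB, a bZIP factor, was higher, with 25.8 and 31.2 CPM against 11.2 to 11.8 CPM (1.305 ± 0.13, edgeR adjusted p = 4.6e-11), or 0.84 with the GC offset. Without the second-table knockdown library 8 were lower and 2 higher, and without the second-table Control library 5 and 2, while the shares over all genes fell as well.

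NRF2 targets and oxidative stress genes were lower in 9 and higher in 3 of 24, with a median of -0.12, and with the GC offset in 12 and 2. Without the second-table knockdown library 7 were lower and 0 higher. TXNRD1, thioredoxin reductase, had 263 and 274 CPM in second-table libraries, against 425 and 479.7 CPM in first-table knockdown and 504 and 525 CPM in first-table Control libraries (-0.84 ± 0.06, edgeR adjusted p = 7.2e-15). NQO1, a quinone reductase, differed by -1.20 ± 0.15 and FTL, the ferritin light chain, by -0.74 ± 0.06, both without overlap. SRXN1, sulfiredoxin, was called higher (1.49) at under 2 CPM in every library, with overlap between the tables and without a call when either second-table library was left out (edgeR adjusted p = 0.13 and 0.33). Lysosome and autophagy genes were lower in 10 and higher in 2 of 22, with a median of -0.17, and with the GC offset in 12 and 0. LAMP2, a lysosomal membrane protein, was lower (-0.46), while GAA, acid glucosidase, was higher (0.58) and not called with the GC offset (edgeR adjusted p = 0.051). TFEB, a transcription factor, was higher by more (0.70), with 7.10 and 6.03 CPM in second-table against 2.91 to 4.70 CPM in first-table libraries. It was not called with the GC offset (0.52, edgeR adjusted p = 0.11). TFEB differed by 0.36 without the second-table knockdown library. Without the second-table knockdown library 6 of this list were lower and 1 higher.

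p53 targets were higher in the second table. Of 22 tested members 14 were higher and 1 lower, with a median of 0.36; with the GC offset 11 were higher and 0 lower, with a median of 0.31. BBC3, which encodes the pro-apoptotic protein PUMA, had 57.6 and 57.8 CPM in second-table libraries, against 30.1 and 28.9 CPM in first-table knockdown and 28.1 and 28.9 CPM in first-table Control libraries (0.99 ± 0.09, edgeR adjusted p = 6.8e-12). Both second-table libraries lay far above the first-table libraries, which differed little among themselves; with the GC offset the difference was 0.38. PHLDA3, an AKT repressor, had 92.4 and 74.0 CPM against 36.5 to 54.3 CPM (0.79 ± 0.09, edgeR adjusted p = 1.2e-09). BTG2, an antiproliferative gene, and FDXR, ferredoxin reductase, were higher by 0.72 and 0.74 (0.44 with the GC offset for FDXR). CDKN1A belongs to this list and to the quiescence list. ZMAT3 was the member called lower (-0.17), and it was not called with the GC offset or, among other settings, without the second-table Control library (-0.09, edgeR adjusted p = 0.56).

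Immediate early genes were higher in 10 and lower in 3 of 24, with a median of 0.32, or 8 and 3 and 0.14 with the GC offset. IER5, a regulator of heat shock factor, had 204 and 213 CPM in second-table libraries, against 91.6 and 93.6 CPM in first-table knockdown and 86.7 and 81.4 CPM in first-table Control libraries. It differed by 1.24 ± 0.06 (edgeR adjusted p = 7.5e-20) and by 1.22 with the GC offset. JUND, an AP-1 subunit, had 128 and 128 CPM against 52.7 to 59.6 CPM (1.20 ± 0.07, edgeR adjusted p = 7.4e-18), or 0.59 with the offset. DUSP5, ATF3 and KLF6 were the members called lower, and without the second-table Control library 0 were. Hypoxia and HIF targets were mixed, with 7 higher and 4 lower of 22 and a median of 0.06; without the second-table knockdown library 4 were higher and 3 lower, without the second-table Control library 4 and 2, and with the GC offset 6 and 4. EGLN1, the oxygen-sensing prolyl hydroxylase, had 23.1 and 23.0 CPM against 6.93 to 13.9 CPM (1.13 ± 0.16, edgeR adjusted p = 2.6e-07), ANKRD37 differed by 1.75, and the glucose transporter SLC2A3 by -1.0002 ± 0.06. Of 6 metallothionein and zinc response genes tested, MT2A was higher (0.49) and MTF1, the metal-sensing factor, lower (-0.44), and SLC30A1, a zinc exporter, was also lower (-0.34), but not called without the second-table Control library (-0.19, edgeR adjusted p = 0.26) or with the GC offset (-0.20, edgeR adjusted p = 0.056).

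**Figure D5:**
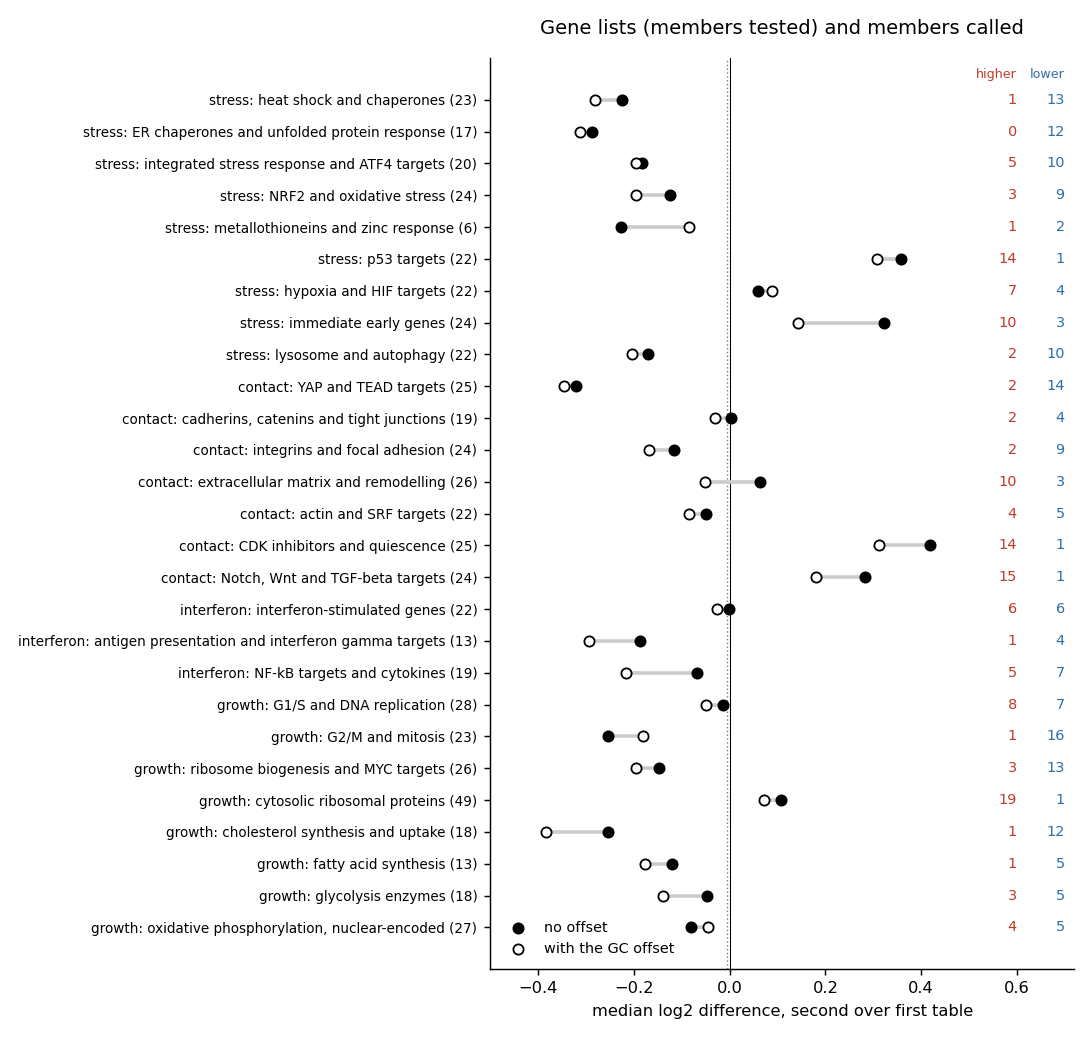
Median log2 difference of the second over the first table (x axis) for 27 gene lists (rows, members tested in brackets) without an offset (filled) and with the GC offset (open); the dotted line is the median of all genes. Numbers at the right count members called higher and lower without the offset: p53, quiescence and Notch, Wnt and TGF-beta lists lie to the right, and YAP and TEAD targets, ER chaperones and cholesterol synthesis to the left.

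Interferon-stimulated genes did not move as a group. Of 22 tested members 6 were higher and 6 lower, with a median of 0.00, and 5 and 5 with the GC offset. ISG15, a ubiquitin-like protein, had 21.2 and 18.5 CPM in the second-table knockdown and Control libraries, against 5.32 and 4.99 CPM in first-table knockdown and 5.50 and 6.24 CPM in first-table Control libraries. IFIT1, which binds viral RNA ends, had 45.5 and 28.1 CPM in second-table libraries, against 15.3 and 14.3 CPM in first-table knockdown and 11.7 and 12.1 CPM in first-table Control libraries. Neither gene overlapped between the tables, and they differed by 1.85 ± 0.16 and 1.44 ± 0.12 (edgeR adjusted p = 4.9e-12 and 4.2e-13). BST2, the virus-tethering protein tetherin, had 65.1 and 67.6 CPM against 28.0 to 35.0 CPM (1.07 ± 0.09, edgeR adjusted p = 1.1e-12). PARP14, an ADP-ribosyltransferase with macrodomains, was lower, with 33.4 and 30.1 CPM in second-table libraries against 41.5 to 50.4 CPM in first-table libraries (-0.48 ± 0.10). IFI44 was called higher (1.61) at 5.22 and 1.84 CPM against 0.433 to 1.60 CPM, and lost the call without the second-table knockdown library (1.08, edgeR adjusted p = 0.28). Without that library 3 of the list were higher and 4 lower, and without the second-table Control library 5 and 3. Only 23 of 40 listed genes had the same model in both tables; over all 35 tested by identifier alone, 10 were higher and 9 lower, with a median of 0.07.

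The promoters of ISG15 and IFIT1 are shown because both carry the interferon response motif, 2 copies of GAAA set 2 bases apart on either strand, in capitals (RefSeq, GRCh38.p14). The ISG15 promoter is chr1:1013247-1013546 on the plus strand, inside the longer gene span of the deposited table, and its first match begins 113 bases before the start. The IFIT1 promoter is chr10:89392373-89392672 on the plus strand, with the motif read from the other strand and the first match 116 bases before the start.
ISG15: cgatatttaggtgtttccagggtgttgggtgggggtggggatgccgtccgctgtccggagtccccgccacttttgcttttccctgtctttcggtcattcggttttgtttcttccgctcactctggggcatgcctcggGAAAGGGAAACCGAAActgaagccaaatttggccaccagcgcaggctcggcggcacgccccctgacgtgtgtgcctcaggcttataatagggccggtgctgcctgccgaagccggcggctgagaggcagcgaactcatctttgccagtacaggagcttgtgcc
IFIT1: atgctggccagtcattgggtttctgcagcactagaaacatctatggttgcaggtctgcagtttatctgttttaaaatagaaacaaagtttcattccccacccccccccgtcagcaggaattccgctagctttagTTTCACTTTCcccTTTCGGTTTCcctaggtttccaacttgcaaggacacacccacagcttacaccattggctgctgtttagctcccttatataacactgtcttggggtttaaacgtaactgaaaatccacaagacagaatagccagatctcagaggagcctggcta

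Antigen presentation genes were lower in 4 and higher in 1 of 13, with a median of -0.19, or 6 and 0 with the GC offset. ERAP2, a peptide-trimming aminopeptidase, had 60.7 and 55.0 CPM in second-table against 83.7 to 103 CPM in first-table libraries (-0.72 ± 0.08, edgeR adjusted p = 5.2e-10). NLRC5, the class I transactivator, differed by -0.96 and IL15, a cytokine, by -0.86; IL15 was not called without the second-table knockdown library (-0.79, edgeR adjusted p = 0.12) or without the second-table Control library (-0.92, edgeR adjusted p = 0.083). NF-kB targets and cytokines were lower in 7 and higher in 5 of 19, with a median of -0.07, and 3 and 2 without the second-table knockdown library, 4 and 5 without the second-table Control library and 5 and 3 with the GC offset. CXCL8, the chemokine IL-8, was lower (-1.04; -0.86 and edgeR adjusted p = 0.19 without the second-table knockdown library). BCL3, an atypical I-kappa-B, was higher (1.08; 0.57 and edgeR adjusted p = 0.055 with the GC offset).

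Growth programs differed in several directions. Mitotic genes were lower in 16 and higher in 1 of 23, with a median of -0.25, or 13 and 0 with the GC offset, and 9 and 1 without the second-table knockdown library. ANLN, the cytokinetic scaffold anillin, had 171 and 214 CPM in second-table against 274 to 305 CPM in first-table libraries (-0.57 ± 0.06, edgeR adjusted p = 6.7e-10), and ECT2, a RhoA activator of cytokinesis, differed by -0.42 ± 0.06. G1/S and replication genes were mixed, with 8 higher and 7 lower of 28, 6 and 1 without the second-table Control library, and 6 and 5 with the GC offset; CDT1, the licensing factor, was higher at 194 and 171 CPM against 96.7 to 108 CPM (0.82 ± 0.06, edgeR adjusted p = 2.4e-14), or 0.40 with the GC offset. Ribosome biogenesis genes, counted here together with MYC targets, were lower in 13 and higher in 3 of 26. Of that list MYCN differed most and was higher (1.62), with 2.92 and 4.19 CPM in second-table against 0.607 to 1.96 CPM in first-table libraries. MYCN differed by 0.70 without the second-table Control library. Cytosolic ribosomal protein genes were higher in 19 and lower in 1 of 49. Without the second-table Control library 4 ribosome biogenesis genes were lower and 0 higher, and 11 ribosomal protein genes were higher and 2 lower. With the GC offset 14 ribosome biogenesis genes were lower and 1 higher, and 16 ribosomal protein genes were higher and 1 lower. Ribosomal protein genes were higher in 10 and lower in 9 with an offset for gene length, with a median of 0.03 against 0.11 without it, and higher in 18 and lower in 7 without first-table Control replicate 1. RPL13, a large-subunit protein, had 2436 and 2210 CPM in second-table against 1482 to 1601 CPM in first-table libraries (0.59 ± 0.05, edgeR adjusted p = 9.3e-13), and UTP20, a factor of pre-rRNA processing, differed by -0.55. Genes of cholesterol synthesis and uptake were lower in 12 and higher in 1 of 18, with a median of -0.25, or 13 and 1 and -0.38 with the GC offset. With DESeq2 7 of these were lower and 1 higher, against 14.1% lower over all genes with DESeq2. A fit with no siRNA term also gave 7 and 1, against 15.2% lower over all genes. The median stayed at -0.25 in both. HMGCS1, the synthase before HMG-CoA reductase, had 138 and 189.8 CPM in second-table libraries, against 199 and 254 CPM in first-table knockdown and 312 and 316 CPM in first-table Control libraries (-0.72 ± 0.07, edgeR adjusted p = 3.0e-11). PMVK, phosphomevalonate kinase, was the member called higher (0.49, and 0.27 with the GC offset). Glycolysis, fatty acid and nuclear-encoded oxidative phosphorylation genes had medians of -0.05, -0.12 and -0.08. Glycolysis genes were lower in 5 and higher in 3 of 18, or 8 and 1 with the GC offset. Nuclear-encoded oxidative phosphorylation genes were lower in 5 and higher in 4 of 27, 11 and 0 with the length offset, and 1 and 1 without the second-table knockdown library. Of mitochondrially encoded genes 5 of 13 were lower and 0 higher, 12 and 0 with the length offset (median -0.30, against -0.12 without it), 3 and 1 with the GC offset, and 1 and 1 without the second-table knockdown library.

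Markers of other cell types were low apart from mesenchymal and lineage genes that HEK293 lines express, and their part in the results was not tested. Liver markers had 11 of 14 genes with at most 3 reads in each of the 6 libraries, ALB, AFP and APOA1 among them, and their summed level was 40.6 and 43.5 CPM in second-table against 42.3 to 51.1 CPM in first-table libraries, nearly all from CPS1. Blood and endothelial markers summed to 11.4 and 10.0 CPM against 11.9 to 15.1 CPM, with PTPRC and CD3E at most 3 reads in each library. Surface epithelial markers summed to 49.2 and 44.2 CPM against 46.3 to 55.9 CPM. Fibroblast and mesenchymal markers summed to 399.8 and 415 CPM in second-table against 288 to 306 CPM in first-table libraries, with DCN and FAP at most 3 reads in each; of 10 tested, 3 were higher, among them COL1A1 (0.53) and TWIST1 (1.01), and LUM was lower (-1.27). COL1A1 was not called without the second-table Control library (0.35, edgeR adjusted p = 0.060), and was 0.25 with the GC offset. Kidney and renal development genes summed to 1453 and 1844 CPM in second-table against 1496 to 1999 CPM in first-table libraries, and neuronal genes, which HEK293 lines are known to express, to 1481 and 1576 CPM against 1283 to 1384 CPM. Of 15 tested kidney and renal development genes 7 were higher and 1 lower, or 5 and 2 with the GC offset. Of 13 tested neuronal genes 5 were higher and 2 lower, or 4 and 3 with the GC offset. Over all genes 18.1% were higher and 19.3% lower, or 11.1% and 16.6% with the GC offset. In bulk libraries fewer cells of a type and less RNA per cell cannot be told apart.

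The largest differences sat beside changed gene models. Of 16 genes called with a log2 difference of at least 3 in size, 10 (62.5%) overlapped a gene that was in 1 table only or had another model in the other table, against 5.13% of all tested genes. NELFCD, a subunit of the negative elongation factor at 58981208 to 58995133 on the plus strand of chromosome 20, had 2096 and 2197 reads in the second-table knockdown and Control libraries and 0 reads in each first-table library, at least 818-fold over the floor of 3 reads per library. In the first table the model of CTSZ, on the other strand, covers 58985686 to 59008238 and so runs into NELFCD. POLDIP3, which encodes a partner of DNA polymerase delta, had 1732 and 1806 reads in second-table libraries against 1 to 8 reads in first-table libraries, and the first table alone holds a further model, ENSG00000289517, over it. FANCG, a Fanconi anaemia protein, went the other way, with 14 and 16 reads in second-table against 483 to 607 reads in first-table libraries. FANCG lies at 35073835 to 35079942 on the minus strand of chromosome 9. In the second table the model of VCP, on the same strand, reaches 35079926 and covers all but the first bases of FANCG. PRKAG1, GPATCH4, PHPT1, GALT and IL17RC, among the 10 highest by the naming rule, also overlap a changed model, and so does ENSG00000284976. Read assignment among overlapping models and expression cannot be told apart for these genes. Of the 10 highest, ABCG1, a sterol exporter, overlaps none, with 14.8 and 11.04 CPM in second-table against 1.04 to 2.41 CPM in first-table libraries (3.05 ± 0.24, edgeR adjusted p = 2.6e-13), and PDXP overlaps a gene with the same model in both tables.

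The lowest genes by the same rule, apart from FANCG and GSTM2, overlap no changed model. ACTBL2, an actin-like gene, had 3.44 and 4.80 CPM in second-table against 13.2 to 31.2 CPM in first-table libraries (-2.53 ± 0.20, edgeR adjusted p = 1.6e-13); it has many near-identical actin relatives, and its counts are uncertain. GPNMB, a transmembrane glycoprotein of lysosomes and the cell surface, had 5.53 and 4.70 CPM against 18.2 to 27.8 CPM (-2.20 ± 0.18, edgeR adjusted p = 6.0e-13). GSTM2, a glutathione transferase, had 10.1 and 10.3 CPM against 23.7 to 30.3 CPM (-1.40 ± 0.13, edgeR adjusted p = 3.7e-11). LAMB3, a laminin chain, had 6.16 and 11.6 CPM against 14.5 to 28.5 CPM (-1.31 ± 0.17, edgeR adjusted p = 4.5e-08). PSG4 (-2.52) and ALPG (-1.49) belong to families of near-identical copies, so their counts are uncertain too. ANKRD1, SLC7A11 and TGFB2 complete the 10.

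Motifs were searched in the promoters of the genes called higher, the genes called lower and all tested genes. Of 9574 tested genes with a RefSeq promoter, 3.55% held the interferon motif described above, 3.13% of those called higher and 4.204% of those called lower. GGAATG was found in 13.8% of promoters of genes called higher, 15.7% of those called lower and 14.7% of all. TGACNNNGC, the core of the antioxidant response element, was found in 17.01%, 21.1% and 18.9%, and TGATGNAA, an ATF4 site, in 1.48%, 3.89% and 2.61%, in the same order. With the GC offset the ATF4 site was in 1.62% of genes called higher and 3.83% of those called lower, and the antioxidant core in 15.98% and 21.5%. TATAAA was found in 7.27%, 9.14% and 8.41%, and a heat shock element, GAA, TTC and GAA each 2 bases apart, in 0.354%, 0.525% and 0.449%. With the GC offset TATAAA was in 10.1% of genes called higher and 7.60% of those called lower, so its order turned. Both strands were searched, and a match is only a description. Promoters of genes called higher were richer in G and C, with a median of 68.0%, against 64.5% for those called lower and 65.0% for all.

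By chromosome the difference followed base composition in part. The 893 tested genes of chromosome 19 had a median log2 difference of 0.27, with 43.7% higher and 1.68% lower, and a median of 0.09 with the GC offset. The 172 genes of chromosome 18 had a median of -0.19 and the 431 genes of chromosome 4 of -0.15, and -0.13 and -0.08 with the offset. Median GC content was 58.7%, 43.4% and 42.1% on these 3 chromosomes. The medians of chromosomes 19, 18 and 4 had the same sign within knockdown and within Control libraries.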

How the data were processed

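Alignment and counting were done by the authors with HISAT2 and HTSeq on hg38, per the submitters' processing notes, which give neither versions nor a strand setting here. The deposited counts are whole, unnormalized reads per gene, in 1 table for 4 libraries and 1 for 2 libraries. The columns of those 2 libraries are named control and siRAD6 and give no replicate number. The siRAD6 column was read as the knockdown, since RAD6 is the common name of UBE2A and UBE2B. The deposited FPKM values, recomputed from the counts within 0.1%, were not tested. Tables were joined by Ensembl identifier, and the 17183 of 19922 shared genes with the same length, start and end were kept. With a row per gene, the table difference was tested in edgeR 4.0.16 (R 4.3.3) by quasi-likelihood F test (TMM factors, filterByExpr by table, siRNA group as covariate, 3 residual degrees of freedom, Benjamini-Hochberg adjustment, threshold 0.05); log2 differences are second over first table. The SE given with a log2 difference is the size of that difference divided by the square root of its F statistic. The interaction had 2 residual degrees of freedom. DESeq2 1.42.0 and limma 3.58.1 were alternatives. GC content was that of the longest GENCODE v29 transcript, for 17076 of the kept genes (99.4%); the GC offset was a loess curve (span 0.5) per library. Scripts were tested on simulated counts. Members and lists were chosen with earlier results of these data known. Named genes were drawn from UBE2A, UBE2B, the 10 highest and 10 lowest called genes with at least 5 CPM on average and no overlap between tables, and per list the 2 called members that differed most, or the 2 highest where none was called; further list members were named after their values were seen. Counting intervals cover counting error only.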

Additional observations from a re-analysis of the deposited data

How the results depend on the processing

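Of the counts, 4468 genes called, 2160 higher and 2308 lower, normalization, tool, filter, gene set and siRNA term moved none by over 1.5 times. Without 1 library the total ran from 2480 to 4202, the genes higher from 1347 to 2122, the genes lower from 1080 to 2149 and those differing at least 2-fold from 315 to 380; the lowest totals came without a second-table library, where 1 library stands for its table. With GC offsets, added after seeing the data, 1324 were higher (1366 with gene length as well). With a mean of at least 5 CPM 181 genes differed at least 2-fold, against 366, with fewer genes tested. The interaction called 0 genes, 3 with no filter, and 0 to 1 without 1 first-table library. The GC contrast of 0.44 was 0.38 with a length offset, -0.011 with the GC offset and -0.00972 with GC and length, by construction. The replicate block called 4544 genes; the first table's 2 numbered pairs are too few to show pairing, and no call of a named gene was lost under it. Medians turned sign for antigen presentation (0.031, and -0.45 without the second-table Control library) and oxidative phosphorylation (0.049, and -0.14) without the second-table knockdown library, NF-kB targets (0.032) without the second-table Control library, histones (-0.13 with no filter, -0.11 and -0.13 with the GC offsets) neuronal genes (-0.13 with no filter), actin and SRF targets (0.059 without the second-table knockdown library, against -0.048), extracellular matrix (-0.052 with the GC offset, against 0.063) and the 2 liver genes (-0.20 with no filter, -0.18 with at least 5 CPM and -0.18 without first-table knockdown replicate 2, against 0.16); the medians of junction, interferon-stimulated and G1/S genes, near 0, also changed sign under several settings; the cause was not tested. DESeq2 called 3388 genes. Low genes under about 2 CPM rest on few reads.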

Other observations

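Gene families were grouped by symbol after the values were seen, so their counts are descriptions. Of 29 tested HOX genes, which set position along the body axis, 16 were higher and 0 lower, with a median log2 difference of 0.47 (0.53 within knockdown and 0.40 within Control libraries), and 14 and 0 with the GC offset. HOXB8 differed by 1.88 and HOXA5 by 0.82. Of 39 tested PCDH genes, cell-surface adhesion proteins, 15 were higher and 4 lower, with a median of 0.46, or 15 and 3 with the GC offset. PCDHGA6 was higher by 1.01 and PCDH19 by 1.02, while PCDH7 and PCDH9 were lower by -0.55 and -0.41. Clustered protocadherins share exons and overlap in the genome, so their counts are uncertain.

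Zinc finger genes named ZNF were higher in 39 and lower in 5 of 201 on chromosome 19, with a median GC content of 42.4% and a median difference of 0.12, or 50 and 3 and 0.19 with the GC offset. On other chromosomes they were higher in 45 and lower in 12 of 212, or 33 and 12 with the GC offset. Over all tested genes 18.1% were higher and 19.3% lower, or 11.1% and 16.6% with the GC offset. Without the offset the share of ZNF genes called higher thus lay near that of all genes. On chromosome 19 it lay below the 43.7% of all tested genes there. Proteasome genes were lower in 11 and higher in 0 of 46, or 10 and 0 with the GC offset, a share lower not far above that of all genes. Translation initiation factor genes were lower in 14 and higher in 2 of 43. With the GC offset these counts were 7 and 2, a share lower near that of all genes. Solute carriers were lower in 52 and higher in 26 of 234, or 51 and 9 with the GC offset.

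Of 12 replication-dependent histone genes tested, H1-2 was higher (0.75) and H2BC12 lower (-0.73). SOX4, a progenitor factor among the neuronal genes, had 473 and 435 CPM in the second-table knockdown and Control libraries, against 247 and 248 CPM in first-table knockdown and 244 and 213 CPM in first-table Control libraries (0.93 ± 0.06, edgeR adjusted p = 3.3e-17). LRP2, the proximal tubule receptor megalin, had 17.5 and 18.9 CPM in second-table against 9.18 to 10.8 CPM in first-table libraries (0.85 ± 0.14, edgeR adjusted p = 9.8e-06).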
